A study of Mus musculus with 23 samples.

Results

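The genes described here form a feedback arm of cytokine signalling: the suppressors of cytokine signalling *Socs1*, *Socs2*, *Socs3*, *Socs4* and *Cish*, the PIM kinases *Pim1*, *Pim2* and *Pim3*, and the transcription factors *Stat3* and *Stat5a*. They were matched by NCBI gene identifier (positions are of GRCm38), and all 10 were found among the 21878 genes listed. RNA was sequenced from neutrophils sorted as CD45+, CD11b+ and Ly6G+ cells, in 17 libraries of adult C57BL/6J background mice. In the tissue experiment, WT mice gave 3 libraries each from lung, peripheral blood (PB) and bone marrow (BM). In the Piezo1 experiment, WT mice and mice with a conditional knockout of *Piezo1* (*Piezo1*-cKO, *Vav1-iCre* with floxed *Piezo1*) gave 2 libraries each from lung and from PB. *Vav1* drives Cre across the blood lineages, so the deletion was not limited to neutrophils. All cells of the lung and PB groups went through negative selection and flow sorting, and lung cells also through enzymatic digestion.

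Cytokine receptors of neutrophils, among them the receptor for G-CSF, carry Janus kinases (JAKs) that phosphorylate STAT proteins, and STAT3 and STAT5 then switch on target genes. SOCS proteins and CIS, the product of *Cish*, are among those targets: they bind receptors or JAKs and, through their SOCS box, recruit an ubiquitin ligase, which closes a negative feedback loop. *Pim1* to *Pim3* encode serine/threonine kinases that have no regulatory domain, so that their activity follows their amount, and that are known to favour survival and growth downstream of the same receptors. SOCS3 is known in neutrophils as the brake on G-CSF signalling.

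STAT dimers bind the palindrome TTCNNNGAA, and the narrower form TTCCNGGAA is also used by STAT5. Reference promoter windows of RefSeq on GRCm38.p6, from 250 bases before to 50 bases after a transcript start, were listed for 9 members in 11 windows (all but *Socs2*). Of these members, the windows of *Cish* and *Socs3* held the motif, on either strand since it is a palindrome. *Cish* (NCBI gene 12700, chr9:107296659-107302784) had TTCCTGGAA from the first transcribed base and TTCTTGGAA from base 12. *Socs3* (NCBI gene 12702, chr11:117966079-117970336) had TTCTTAGAA from 154 bases before the transcript start of its window. That window, chr11:117969317-117969616, lies inside the span given for *Socs3*, so the motif does too. Among all 32851 windows of the same length, 8.30% held TTCNNNGAA at least 1 time and 0.457% at least 2 times, and 1.15% held TTCCNGGAA, whose matches are all matches of the wider motif as well. These letters describe the sequence, and binding was not measured. Both stretches are printed because these 2 members had the largest changes of the SOCS family between BM and PB, in opposite directions. They read 5′ to 3′ along the gene, with the motif in capitals: *Cish* is chr9:107296409-107296678 on the plus strand, and *Socs3* is chr11:117969367-117969616 on the minus strand.
Cish: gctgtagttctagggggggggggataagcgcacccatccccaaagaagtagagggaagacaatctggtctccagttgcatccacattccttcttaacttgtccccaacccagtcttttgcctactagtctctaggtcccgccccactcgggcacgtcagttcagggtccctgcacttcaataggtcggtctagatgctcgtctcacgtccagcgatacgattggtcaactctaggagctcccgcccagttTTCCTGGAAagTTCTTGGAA
Socs3: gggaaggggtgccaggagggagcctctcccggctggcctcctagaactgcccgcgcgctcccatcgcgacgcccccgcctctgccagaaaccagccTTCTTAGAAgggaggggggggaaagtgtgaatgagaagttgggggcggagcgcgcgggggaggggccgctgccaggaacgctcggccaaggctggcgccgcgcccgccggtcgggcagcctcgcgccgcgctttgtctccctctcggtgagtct

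Reads recovered from the deposited values (see the data processing) came to 16502142 to 19330763 per library in the tissue experiment and 9621002 to 15034628 in the Piezo1 experiment, lowest in 1 *Piezo1*-cKO PB library. Where a gene had no read, up to 3 reads remain possible (0.155 to 0.312 per 1000000 reads), a limit for counting error only. Levels are FPKM, which are scaled to gene length, and differences are log2 fold changes of FPKM + 1 with their SE. A member was called when its adjusted p from limma was below 0.05 and its absolute log2 fold change above 1. The labels do not say whether replicate libraries came from separate mice, so the p-values measure only the spread between the libraries of a group. The median gene was lower in lung than in PB by 0.54, lower in lung than in BM by 0.70 and lower in PB than in BM by 0.12 on the log2 scale, so that a member at 0 stood above the median gene in lung. Of all genes called between lung and PB, 587 were higher and 1476 lower, and with FPKM rescaled by the median ratio 932 were higher and 448 lower. The neutrophil markers were detected in every group, 8 of 8 with a mean of at least 1 FPKM. *Piezo1* itself was near its floor in the Piezo1 experiment: the lung libraries had 8 and 8 reads without the deletion and 7 and 4 with it, and the PB libraries 5 and 5 without and 3 and 10 with it. These counts were too low to check the genotype labels, and the deleted part is only a segment of the gene.

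*Socs3*, *Pim1* and *Pim3* were the members with the largest rises outside BM, and *Cish* was the only member called lower in PB than in BM. *Pim1* and *Pim3* rose from BM to PB and again from PB to lung. *Socs3* was highest in PB, and *Cish* was close to absent there. In counts, 4 of the 9 members tested were called higher in PB than in BM, against 7.85% of all 8237 genes tested, and 1 was called lower, against 14.1%. Between lung and BM 3 of 9 were called higher and none lower, against 9.86% and 36.0% of 8236 genes. Between lung and PB 3 of 9 were called higher and none lower, against 7.75% and 19.5% of 7577 genes. *Cish* is counted among the calls of PB against BM and of lung against PB. It passed the filter there only through the BM or the lung libraries, so a difference was built in for it. The members' median log2 fold change was 0.50 for PB against BM, 0.44 for lung against BM and 0.06 for lung against PB, beside -0.12, -0.70 and -0.54 over all genes tested. *Socs2* (NCBI gene 216233, chr10:95383903-95417321), a SOCS member best known for restraining growth hormone signalling, never reached 1 FPKM and was tested nowhere. It had 0 to 2 reads per library in the tissue experiment. The list was chosen with results of these data known, so these shares describe it and are not independent evidence.

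**Figure D1:**
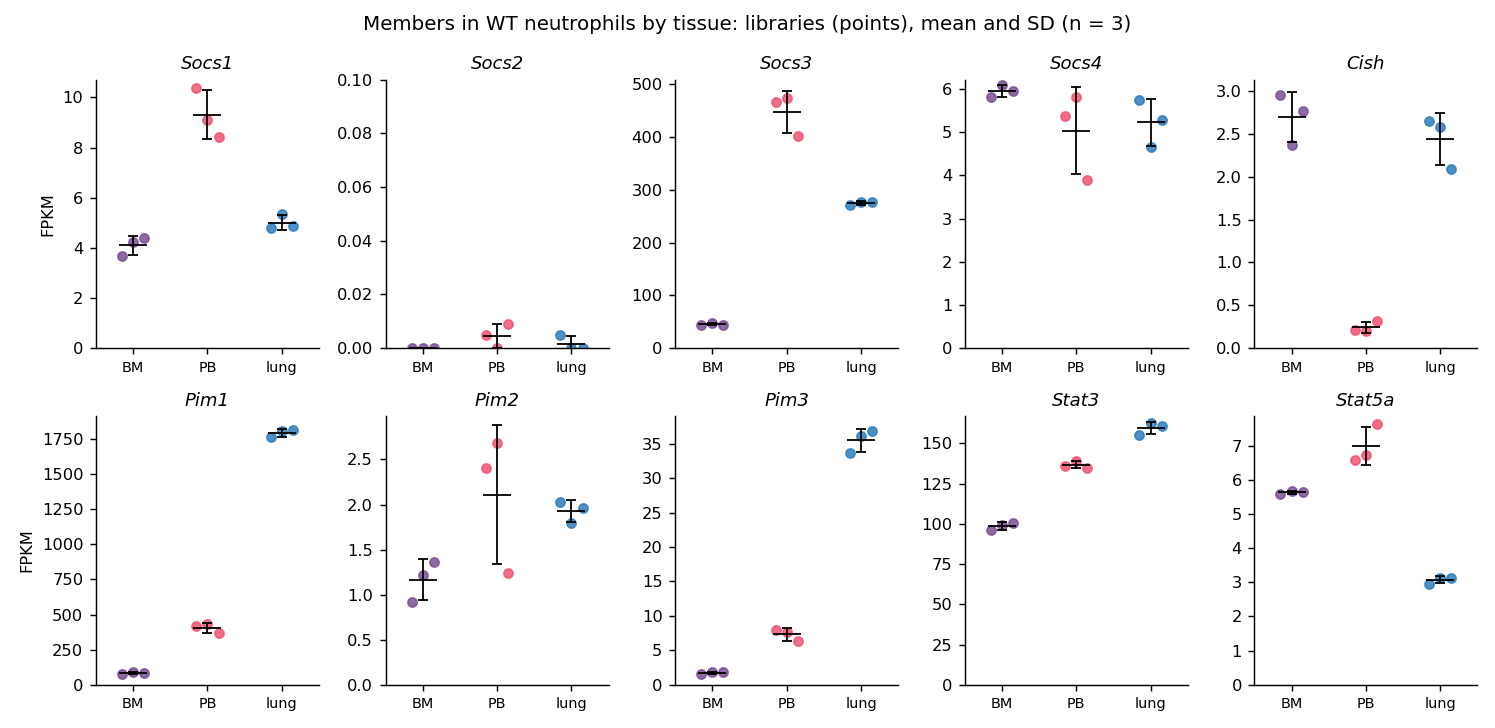
FPKM of the 10 members in each WT library of the tissue experiment, with BM, PB and lung on the horizontal axis, a scale of its own for each gene starting at 0, and bars for the mean and SD (n = 3). *Pim1* and *Pim3* climb from BM to PB to lung, *Socs3* and *Socs1* peak in PB, *Cish* dips in PB, and *Socs2* stays below 0.01 FPKM.

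*Socs3*, the brake on receptors that signal through STAT3, stood at 44.3, 47.5 and 44.4 FPKM in the 3 BM libraries, 466, 474 and 401 in PB, and 271, 276 and 278 in lung. Every PB library lay above every lung library, and every lung library above every BM library. The rise from BM was 3.27 ± 0.07 in PB (SE, adjusted p = 1.76e-08 from limma) and 2.57 ± 0.03 in lung (adjusted p = 5.58e-13), which is 9.85 and 6.06 times the mean FPKM of BM. Lung was lower than PB by 0.70 ± 0.07 (adjusted p = 3.48e-05), short of the fold change threshold and 0.16 below the median gene. In PB *Socs3* ranked 135th of all genes by mean FPKM, against 1257th in BM. In bulk samples, a smaller share of cells that express a gene and less of its RNA per cell cannot be told apart.

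*Socs1* (NCBI gene 12703, chr16:10783808-10785536), which inhibits JAKs downstream of interferon receptors, was far less abundant than *Socs3*. Its FPKM was 3.66, 4.25 and 4.39 in BM, 10.4, 9.12 and 8.43 in PB, and 4.79, 5.35 and 4.88 in lung. PB stood above both other tissues in every library, and lung above BM by a small margin. The rise from BM to PB was 1.01 ± 0.09 (adjusted p = 2.68e-05 from limma), and it rested on the fold change threshold: without BM replicate 1 it was 0.95, and without PB replicate 1 it was 0.94. Lung was lower than PB by 0.78 ± 0.09 (adjusted p = 6.30e-05), 0.24 below the median gene, and higher than BM by 0.24 ± 0.08 (adjusted p = 0.0126), neither past the fold change threshold.

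*Socs4* (NCBI gene 67296, chr14:47276920-47296102), a SOCS protein linked to EGF receptor turnover, ranged from 3.90 to 6.10 FPKM over the 9 libraries. The 3 tissues overlapped, apart from lung and BM, where the highest lung library (5.74) lay just under the lowest BM library (5.81). The differences were -0.22 ± 0.12 for PB against BM, -0.16 ± 0.07 for lung against BM and 0.06 ± 0.13 for lung against PB, with adjusted p of 0.139, 0.0562 and 0.703 from limma. Rescaling by the median ratio turned the lung to BM difference to 0.56, and leaving out PB replicate 3, which held the lowest value, turned the lung to PB difference to -0.09.

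*Cish* went the other way from *Socs3*. Its product CIS is a STAT5-induced inhibitor of receptors such as those for IL-2 and GM-CSF. The 3 BM libraries had 2.95, 2.37 and 2.76 FPKM, those of PB 0.211, 0.202 and 0.313, and those of lung 2.65, 2.58 and 2.09. In reads, that is 197 to 243 in BM, 16 to 25 in PB and 148 to 195 in lung, so PB lay far under both other tissues, which overlapped with each other. The mean in lung was 10.1 times that in PB. On the log2(FPKM + 1) scale, which understates changes of such low genes, PB was 1.57 ± 0.09 lower than BM (adjusted p = 1.13e-06 from limma) and lung 1.47 ± 0.09 higher than PB (adjusted p = 2.16e-06). *Cish* entered these comparisons through the libraries in which it was high, so it could hardly be tested without differing, and leaving out a BM or a lung library removed it from the test. Lung and BM differed by -0.10 ± 0.09 (adjusted p = 0.295), or by 0.50 after rescaling by the median ratio.

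*Pim1* (NCBI gene 18712, chr17:29490785-29496111), the family member most closely tied to STAT-driven induction, was the most abundant member in lung of the tissue experiment. In WT lung of the Piezo1 experiment *Socs3* was higher, at a mean of 182 FPKM against 131. In the tissue experiment *Pim1* stood at 77.7, 89.3 and 84.2 FPKM in BM, 417, 435 and 366 in PB, and 1762, 1807 and 1814 in lung, with no overlap between tissues. By mean FPKM it was the 675th gene in BM, the 153rd in PB and the 29th in lung. Lung exceeded BM by 4.41 ± 0.04 (adjusted p = 1.07e-13 from limma), PB exceeded BM by 2.26 ± 0.08 (adjusted p = 1.27e-07), and lung exceeded PB by 2.14 ± 0.07 (adjusted p = 7.37e-08). As ratios of mean FPKM these are 21.4, 4.85 and 4.42. Against the median gene the differences were 5.11, 2.38 and 2.68.

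*Pim3* (NCBI gene 223775, chr15:88862194-88865726), a PIM kinase also studied in epithelial and metabolic tissue, followed the same steps at a far lower level. The libraries had 1.62, 1.80 and 1.82 FPKM in BM, 8.01, 7.63 and 6.32 in PB, and 33.6, 36.1 and 36.8 in lung. The tissues did not overlap. The log2 fold changes were 3.73 ± 0.06 for lung against BM, 1.59 ± 0.10 for PB against BM and 2.14 ± 0.09 for lung against PB, with adjusted p of 3.20e-12, 2.10e-06 and 2.07e-07 from limma. The mean in lung was 20.3 times that in BM and 4.85 times that in PB.

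*Pim2* (NCBI gene 18715, chrX:7878306-7883432), the family member best known from lymphoid cells, was low and did not share these steps. It had 0.919 to 1.36 FPKM in BM, 1.24 to 2.69 in PB and 1.80 to 2.03 in lung. PB overlapped both other tissues, since PB replicate 3 held 1.24 FPKM against 2.41 and 2.69 in the other two. Lung lay above BM in every library, by 0.44 ± 0.09 (adjusted p = 9.11e-04 from limma), and PB was higher than BM by 0.50 ± 0.19 (adjusted p = 0.0410), both short of the fold change threshold. Lung and PB differed by -0.05 ± 0.18 (adjusted p = 0.782), which turned to 0.37 after rescaling by the median ratio and to 0.08 without PB replicate 2.

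Neither transcription factor was called in the tissue experiment. *Stat3* (NCBI gene 20848, chr11:100886806-100939594), which carries G-CSF and IL-6 signals, had 96.0 to 101 FPKM in BM, 135 to 139 in PB and 155 to 163 in lung, in that order without overlap. None of its differences passed the fold change threshold: they were 0.47 ± 0.05 for PB against BM, 0.69 ± 0.03 for lung against BM and 0.22 ± 0.05 for lung against PB, each with an adjusted p of at most 0.00266. With rescaling the lung to BM difference was 1.53 and was called. *Stat5a* (NCBI gene 20850, chr11:100859351-100885169), which carries GM-CSF and IL-3 family signals, had 5.59, 5.67 and 5.65 FPKM in BM, 6.59, 6.74 and 7.62 in PB, and 2.95, 3.14 and 3.12 in lung. PB was highest and lung lowest in every library. Lung was lower than PB by 0.97 ± 0.08 (adjusted p = 8.13e-06 from limma), 0.43 below the median gene, and this difference lay at the threshold: it was -1.16 with a pseudocount of 0.1. Lung was lower than BM by 0.71 ± 0.06 (adjusted p = 1.13e-06), about as much as the median gene.

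Other values moved with the tissues. The summed FPKM of 15 genes induced by stress and cell dissociation was 2551 to 2583 in BM, 12264 to 14160 in PB and 12803 to 12938 in lung. Of these 15 genes, 14 were called higher in PB than in BM and 11 higher in lung than in BM, whereas between lung and PB 3 were higher and 3 lower. The summed FPKM of 10 genes of immature granulocytes was 36647 to 37780 in BM, 556 to 792 in PB and 605 to 629 in lung. The part of either list in the rises of *Socs3*, *Pim1* and *Pim3* from BM was not tested. Markers of monocytes and macrophages summed to 67.2 to 72.4 FPKM in BM, 175 to 190 in PB and 137 to 140 in lung, and the B cell markers to at most 0.945 FPKM in any of these libraries.

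The rest of the pathway was read from 9 lists holding 95 genes that are not members. Between lung and PB, 13 of the 68 tested were called higher in lung and 15 lower, with a median of -0.22, beside 7.75% and 19.5% called and a median of -0.54 over all genes. Of 17 cytokine ligands 4 were tested, and 3 of these were called higher in lung and none lower. *Csf3*, which encodes G-CSF, had 17.3 to 17.9 FPKM in lung and at most 0.02 in BM and PB (4.22 ± 0.07 over PB, adjusted p = 1.85e-09 from limma). *Osm*, an IL-6 family cytokine and itself a STAT5 target, rose by 1.76, and *Lif*, of the same family, rose by 1.63. *Csf3* and *Lif* entered the test through the lung libraries alone. Among receptor chains 3 of 16 were called higher and 1 lower. The 3 were *Il2rg*, the common gamma chain (3.20), *Il10ra*, a receptor chain that signals to STAT3 (2.46), and *Ifnar1*, of the type I interferon receptor (1.86).

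Of the brakes outside the SOCS family, 4 of 11 were called lower in lung than in PB and none higher. *Pias3*, an inhibitor of STAT3, fell by 1.96, *Usp18*, a brake on interferon signalling, fell by 1.95, and *Ptpn6*, the phosphatase SHP-1, fell by 1.67 on the log2 scale. These were 1.43, 1.41 and 1.13 below the median gene. Among the other STATs, *Stat5b* was called lower (-1.38), 0.84 below the median gene, and of 2 other SOCS genes tested *Socs6* was (-1.17), which entered the test through the PB libraries alone. No JAK was called among 4. Of 6 genes listed for the ligase that the SOCS box recruits, 3 were tested and 1 was called, *Arih2*, which rose by 2.56. By adjusted p alone 2 were higher and 1 lower, so the call is for *Arih2* and not for the ligase as a whole. Targets of STAT3 and STAT5 split, 5 of 17 higher and 3 lower: *Osm* again, *Cebpb* (1.70), a factor of emergency granulopoiesis, and *Cebpd* (-3.00), a related factor. Among 8 genes whose products PIM kinases are linked to, 2 were called higher and 4 lower, led by *Cdkn1a*, the cell cycle inhibitor p21 (5.46), *Mapkapk2*, a kinase of the p38 pathway (2.43), and *Eif4b*, a translation factor (-1.57). Against BM, PB had 19 of 67 pathway genes called higher and 2 lower, and lung had 23 of 69 higher and 11 lower. Over all genes 7.85% and 14.1% were called in the first comparison and 9.86% and 36.0% in the second.

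**Figure D2:**
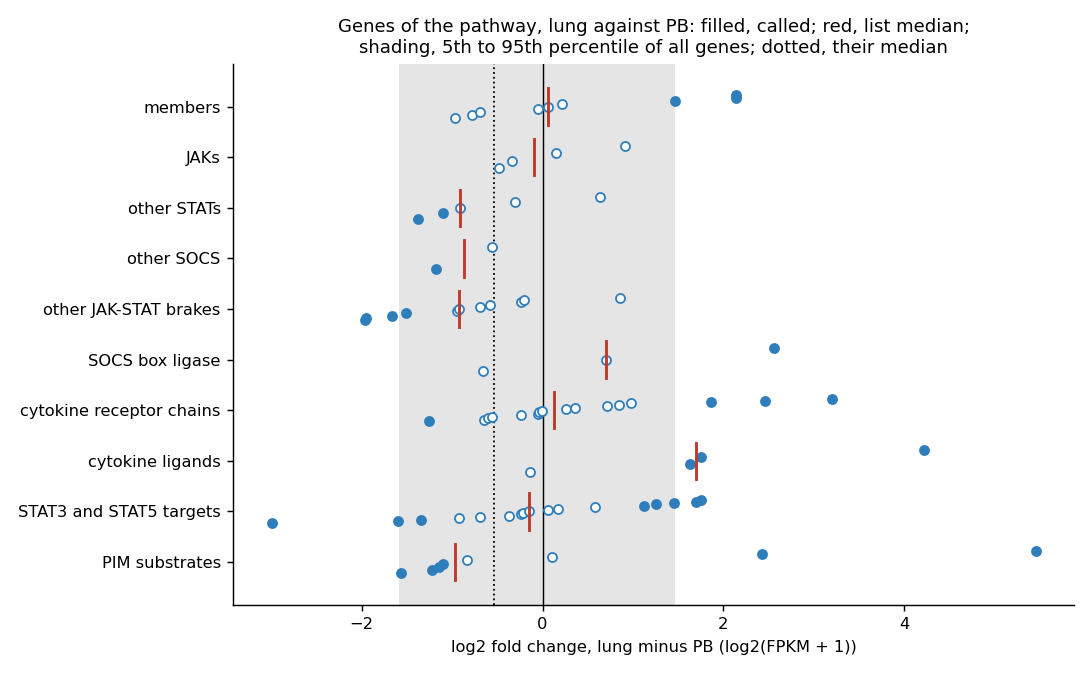
Log2 fold change of FPKM + 1 between lung and PB of the tissue experiment (horizontal axis) for each tested gene of 10 lists (vertical axis), filled where called, with the list median in red and the spread of all genes shaded. *Pim1* and *Pim3* at 2.14 and *Cish* at 1.47 lie at or beyond the right edge of the shading, and the 4 cytokine ligands shown include *Csf3* and *Lif*, which entered the test through lung alone.

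The genes whose profile over the 9 libraries was most like that of a member were found by the distance between log2(FPKM + 1) profiles, each centred on its own mean, among 8414 genes. The 9 libraries fall into 3 tissues, so a small distance mainly says that the 3 tissue levels stand in like proportion. Nearest to *Pim1* were *Ccl4*, *Cd69* and *Nlrp3*, at distances of 0.43, 0.43 and 0.45 and with Pearson r of 0.998, 0.998 and 0.999. Nearest to *Pim3* were *Smox*, *Marcksl1* and *Fth1* (0.27, 0.37 and 0.47). Nearest to *Socs3* were *Rfx2*, *Jund* and *Steap4* (0.30, 0.47 and 0.51), and nearest to *Cish* were *Fmnl3*, *Dsn1* and *Tank* (0.43, 0.45 and 0.46). The smallest distances were those of *Stat5a* to *Coro1b*, *Rab31* and *Gda* (0.10, 0.12 and 0.13). For *Stat3* they were *Msl2*, *Abtb2* and *N4bp3* (0.16, 0.17 and 0.17), for *Socs1* *Mfng*, *Sfxn5* and *Skint3* (0.19, 0.25 and 0.27), for *Socs4* *Senp3*, *Ube2q2* and *Skiv2l* (0.22, 0.23 and 0.23), and for *Pim2* *Trpm2*, *Dnhd1* and *Mprip* (0.27, 0.30 and 0.31). In the 8 libraries of the Piezo1 experiment, which took no part in the choice, Pearson r was high for some pairs and low or negative for others. There the profile of *Pim3* had a Pearson r of 0.987, 0.973 and 0.977 with its 3 genes. In the same order, *Pim1* had 0.971, 0.920 and 0.914, *Socs1* 0.944, 0.721 and 0.863, and *Cish* 0.685, 0.829 and 0.945. *Socs3* had 0.324, 0.927 and 0.934, *Stat3* 0.777, 0.649 and -0.330, and *Stat5a* 0.818, 0.949 and -0.368. *Socs4* had -0.865, -0.294 and 0.280, and *Pim2* -0.822, -0.905 and -0.806. A high r was not always a small distance, the measure of the choice. In these 8 libraries 0.927% to 4.29% of genes lay nearer to *Pim1* or *Pim3* than their chosen genes did. The share was 3.76% to 8.95% for *Cish*, 21.9% to 40.6% for *Socs1* and 2.60% to 62.2% for *Socs3*. It was 1.24% to 71.9% for *Stat5a*, 8.18% to 60.9% for *Stat3*, 23.1% to 77.1% for *Socs4* and 33.8% to 50.3% for *Pim2*.

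Lung and PB were also compared within each genotype of the Piezo1 experiment, whose lung and PB values stand in separate tables that hold the same unit. In WT mice 3 of 9 members were called higher in lung and 1 lower, against 7.50% and 26.5% of 7143 genes. Of those called higher, *Cish* and *Pim2* passed the filter through the lung libraries alone, so a difference was built in for them. In *Piezo1*-cKO mice 2 of 9 were called higher and 1 lower, against 7.93% and 23.0% of 7163. *Pim3* was called in both and in the tissue experiment. Its WT libraries had 5.99 and 6.06 FPKM in PB and 46.8 and 45.2 in lung (2.74 ± 0.05, adjusted p = 1.38e-08 from limma), and the *Piezo1*-cKO libraries 4.04 and 2.86 in PB and 44.6 and 44.4 in lung (3.37 ± 0.13, adjusted p = 1.46e-06). *Pim1* was higher in lung in both genotypes, at 129 and 132 FPKM against 72.1 and 72.5 in WT PB (0.84 ± 0.03, short of the threshold), and at 166 and 164 against 52.6 and 45.5 in *Piezo1*-cKO (1.73 ± 0.07, called). After rescaling by the median ratio the WT difference of *Pim1* was 1.58 and was called.

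*Cish* had 0 reads in both WT PB libraries of this experiment and 199 and 261 in WT lung. Counted against 3 reads over the 2 PB libraries, lung was at least 144-fold higher. *Pim2* had 0.223 and 0.359 FPKM in WT PB, which is 6 and 11 reads, and 4.51 and 3.49 in WT lung, a difference of 1.95 ± 0.12 (adjusted p = 4.27e-06 from limma). Both members passed the filter through the lung libraries, so a difference was built into their being tested. *Stat5a* was lower in WT lung, at 1.27 and 1.22 FPKM against 5.31 and 5.31 in PB, by 1.49 ± 0.09 (adjusted p = 2.44e-06), or by 0.97 after rescaling, short of the threshold. *Socs1* was called lower in lung in *Piezo1*-cKO, by 1.16 ± 0.09 (adjusted p = 2.51e-05), against a WT difference of -0.78 ± 0.09 that was not called, and with rescaling its fall was 0.59 and was not called. The genotypes differed in this respect by -0.38 ± 0.13 (adjusted p = 0.0415 for the interaction of genotype and tissue). *Socs3* was lower in lung by 0.42 in WT and by 0.60 in *Piezo1*-cKO, but higher by 0.32 and 0.05 with rescaling by the median ratio.

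**Figure D3:**
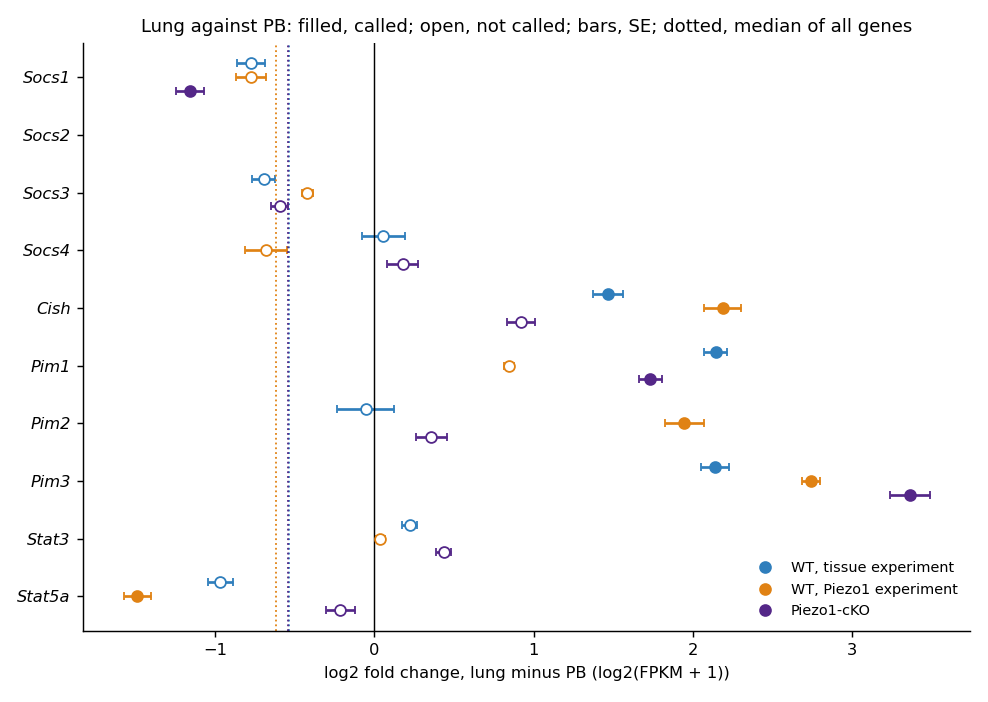
Log2 fold change of FPKM + 1 from PB to lung (horizontal axis) for each member (vertical axis) in WT of the tissue experiment, WT of the Piezo1 experiment and *Piezo1*-cKO, with SE bars, filled points for called members and dotted lines at the median of all genes. *Pim3* is called in all 3 (2.14, 2.74 and 3.37), *Pim2* in WT of the Piezo1 experiment (1.95) and not in the other two, and *Socs2* was not tested.

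The comparison of genotypes addresses the part of PIEZO1, a mechanosensitive ion channel, in these transcripts. In lung, no member of 9 was called, against 0.793% of 6434 genes called higher and 0.202% lower. By adjusted p alone, or at an unadjusted p under 0.05, 3 members were higher in *Piezo1*-cKO and 3 lower, and the adjusted p alone was met by 35.0% and 15.8% of all genes. *Cish* showed the largest difference. Its FPKM was 3.11 and 4.04 in WT lung and 1.44 and 1.49 in *Piezo1*-cKO lung (199, 261, 91 and 91 reads), without overlap, and the mean in *Piezo1*-cKO was 0.409 times that in WT. The difference was -0.89 ± 0.12 (adjusted p = 0.00119 from limma), and 0.404% of all genes had a lower one. With a pseudocount of 0.1 it was -1.22 and with the recovered reads in limma-voom -1.27, and both were called. *Pim2* was lower in *Piezo1*-cKO lung, at 2.53 and 2.68 FPKM against 4.51 and 3.49 (-0.46 ± 0.12, adjusted p = 0.0147). *Stat5a* was higher, at 2.12 and 2.11 against 1.27 and 1.22 (0.47 ± 0.09, adjusted p = 0.00483), *Pim1* by 0.33 ± 0.03 (adjusted p = 2.16e-04) and *Stat3* by 0.28 ± 0.03 (adjusted p = 4.23e-04). *Socs3* was lower by 0.12 ± 0.04 (adjusted p = 0.0377). *Socs1*, *Socs4* and *Pim3* had differences of -0.14, 0.01 and -0.05 with adjusted p of 0.287, 0.974 and 0.366, and that of *Socs4* turned to -0.08 with rescaling.

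In PB, 1 member of the 8 tested was called higher in *Piezo1*-cKO and none lower, against 1.68% and 1.97% of 7256 genes. By adjusted p alone 2 were higher and 4 lower, against 26.5% and 23.2%. The member called was *Pim2*, with 0.223 and 0.359 FPKM in WT and 1.94 and 1.70 in *Piezo1*-cKO (6, 11, 38 and 49 reads), a difference of 1.13 ± 0.11 (adjusted p = 5.22e-04 from limma). It entered the test only through the *Piezo1*-cKO libraries, and without either of them it was not tested. In WT PB of the tissue experiment *Pim2* had 1.24 to 2.69 FPKM, a range that holds both *Piezo1*-cKO values, though the experiments stand in separate tables. *Cish*, not tested here, had 0 and 0 reads in WT and 12 and 19 in *Piezo1*-cKO. Against 3 reads over the 2 WT libraries this was at least 12.3-fold higher. In WT PB of the tissue experiment *Cish* had 16 to 25 reads.

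None of the other PB differences passed the fold change threshold, and they ran in both directions. *Stat5a* had 5.31 and 5.31 FPKM in WT and 2.52 and 2.71 in *Piezo1*-cKO (-0.81 ± 0.09, adjusted p = 7.57e-04 from limma), and *Socs4* had 5.67 and 5.13 against 2.65 and 2.43 (-0.85 ± 0.10, adjusted p = 7.80e-04). Neither pair of groups overlapped. With limma-voom on the recovered reads both were called, at -1.01 and -1.09. *Pim3* was lower by 0.67 ± 0.13 and *Pim1* by 0.55 ± 0.07, with adjusted p of 0.00587 and 0.00128. *Socs1* was higher by 0.24 ± 0.08 (adjusted p = 0.0375), at 11.4 and 12.6 FPKM against 9.85 and 10.1. *Socs3* and *Stat3* differed by 0.06 and -0.12, with adjusted p of 0.391 and 0.0676. *Socs2* had 7 and 6 reads in WT PB and no read in *Piezo1*-cKO PB.

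Erythroid transcripts moved with genotype in these PB libraries. The summed FPKM of 6 erythroid markers was 24.8 to 26.7 in WT PB and 1011 to 1136 in *Piezo1*-cKO PB, where 5 of the 5 tested were called higher. In lung the same sum was 5.11 to 5.12 in WT and 0.422 to 1.70 in *Piezo1*-cKO. The B cell markers summed to 0.198 to 0.586 FPKM in WT PB and 0.662 to 0.927 in *Piezo1*-cKO PB, and the T and NK cell markers to 4.39 to 4.57 and 5.98 to 6.85. Of 14 stress and dissociation genes tested in PB, 11 were lower in *Piezo1*-cKO by adjusted p alone and none was called. The markers of immature granulocytes summed to 1923 to 1934 FPKM in WT PB and 3061 to 3197 in *Piezo1*-cKO PB, and to 948 to 964 and 1265 to 1267 in lung, and 4 of the 5 tested were higher in *Piezo1*-cKO by adjusted p alone in each tissue, and 1 was lower in lung. In lung the 3 monocyte and macrophage markers tested were also higher by adjusted p alone, with summed FPKM over the list of 133 to 135 in WT and 164 to 167 in *Piezo1*-cKO. No marker of the last 2 lists was called. The part of these transcripts in the values of the members was not tested. Of the 95 other pathway genes, none of 66 was called between the genotypes in lung by limma, where 21 were higher and 18 lower by adjusted p alone, beside 35.0% and 15.8% of all genes. In PB 1 of 64 was, *Cdkn1a*, with 5.74 and 6.25 FPKM in WT and 1.17 and 1.25 in *Piezo1*-cKO (-1.66 ± 0.10). By adjusted p alone 25 of the 64 were lower in *Piezo1*-cKO PB and 6 higher, beside 23.2% and 26.5% of all genes, among them *Il10ra* at -0.99 and *Osm* at -0.93.

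**Figure D4:**
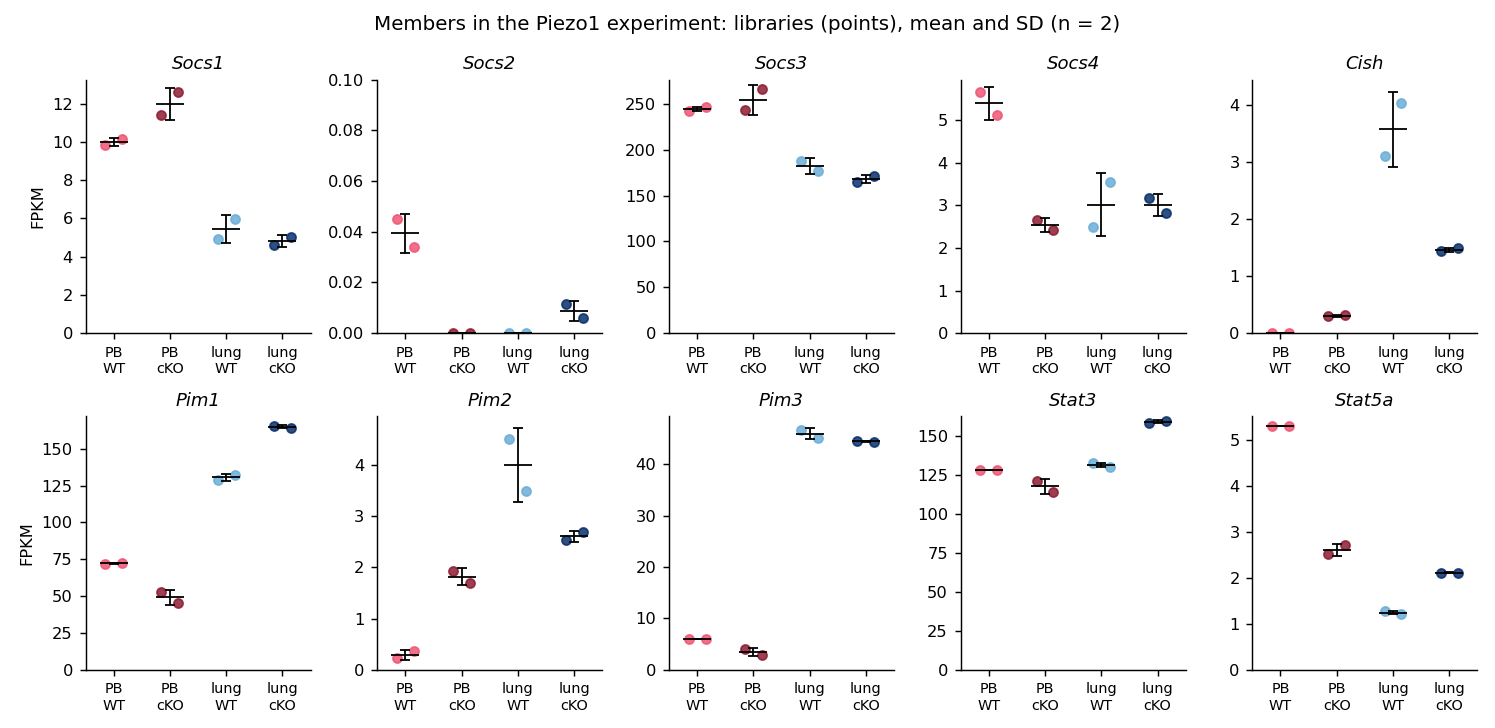
FPKM of the 10 members in each library of the Piezo1 experiment, with WT and *Piezo1*-cKO of PB and lung on the horizontal axis, a scale of its own for each gene starting at 0, and bars for the mean and SD (n = 2). In lung, *Cish* lies at 3.11 and 4.04 in WT and at 1.44 and 1.49 in *Piezo1*-cKO, and the genotype differences of *Pim2* and *Stat5a* have opposite signs in lung and in PB.

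The genotype difference itself differed between lung and PB for 3 of the 9 members tested, 1 higher and 2 lower, against 4.29% and 2.57% of 7560 genes. By adjusted p alone 5 were higher and 3 lower, against 29.7% and 18.5%. The interaction, the *Piezo1*-cKO difference in lung minus that in PB, was 1.28 ± 0.11 for *Stat5a* (adjusted p = 1.02e-04 from limma): in *Piezo1*-cKO the gap between lung and PB narrowed from 5.31 against 1.25 mean FPKM to 2.61 against 2.11. For *Pim2* it was -1.59 ± 0.16 (adjusted p = 1.85e-04), and for *Cish* -1.27 ± 0.15 (adjusted p = 3.42e-04). The values of *Cish* and *Pim2* rest on PB libraries with 0 to 49 reads. *Pim1* had an interaction of 0.89 ± 0.08 and *Socs4* of 0.86 ± 0.18, both under the fold change threshold. It was also above 0 for *Pim3* (0.62 ± 0.15) and *Stat3* (0.40 ± 0.05), and below 0 for *Socs1*, as given above, while that of *Socs3* was -0.17 ± 0.07 with an adjusted p of 0.0683.

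**Figure D5:**
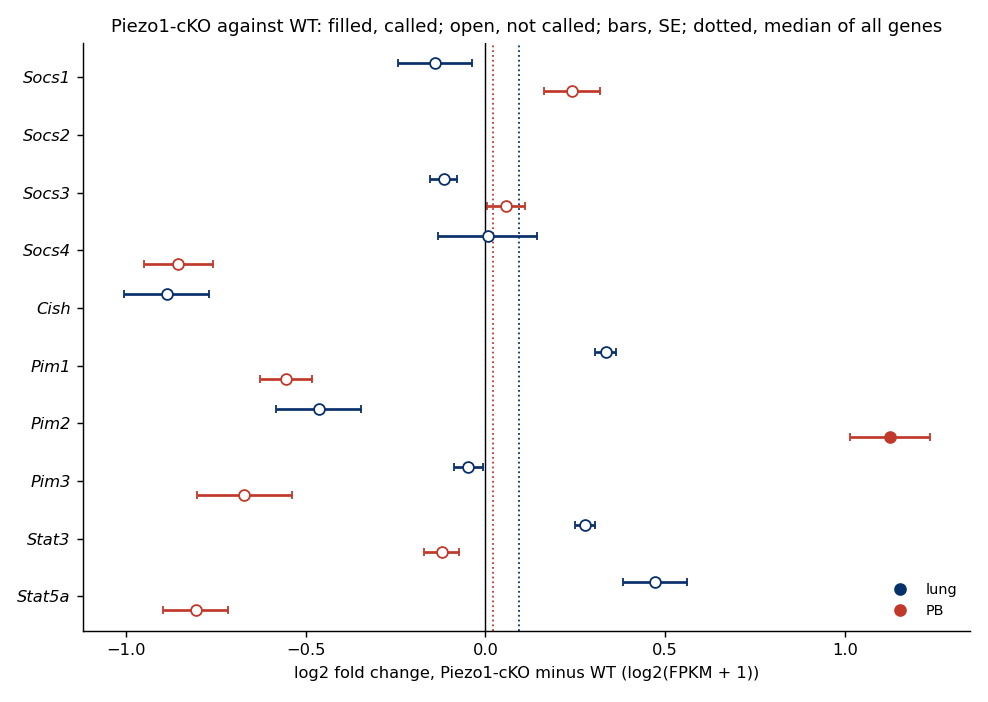
Log2 fold change of FPKM + 1 from WT to *Piezo1*-cKO (horizontal axis) for each member (vertical axis) in lung and in PB, with SE bars, filled points for called members and dotted lines at the median of all genes. *Pim2* in PB (1.13) is the called value, *Cish* in lung is at -0.89 and was not tested in PB, and *Stat5a* lies at 0.47 in lung and -0.81 in PB.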

How the data were processed

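The authors trimmed paired-end reads with fastp, aligned them to mm10 with HISAT2 and counted them with HTSeq-count, in versions not given in the sources used here. For library preparation the paper names the VAHTS Universal V6 kit and the labels a SMARTER kit. As deposited, the values are FPKM per gene and library. The tables of the Piezo1 experiment also hold fold changes and p-values of the authors' own comparison, which were not used, and whole-lung libraries were not used here. Of 21878 symbols, 27 turned into dates were restored by NCBI gene identifier. Reads per gene were recovered from the FPKM, with 100% of values whole within 0.02 reads.

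Groups follow the labels. Each comparison was fitted on its own libraries with limma-trend (limma 3.58.1, R 4.3.3), using robust eBayes with a mean-variance trend, after a pseudocount of 1 was added and log2 taken. Genes entered with FPKM 1 or more in 3 libraries or more, or in 2 for the Piezo1 experiment. P-values were adjusted by Benjamini-Hochberg over all genes that entered, and a gene was called below 0.05 with a log2 fold change beyond 1 in either direction. The alternatives lowered the pseudocount to 0.1, left out the filter, rescaled FPKM by the median ratio, added a replicate block, put all libraries in 1 fit, used limma-voom on the recovered reads with 2 scalings, dropped the fold change threshold, or left out each library. On simulated data of 2 comparisons, the test recovered 99.5% (lung against PB, 7439 genes) and 100% (*Piezo1*-cKO against WT in PB, 7054 genes) of 200 changed genes, with no false call. The planted changes were 2 on the log2 scale in either direction, in genes with a mean above 2 FPKM and a small, fixed spread between libraries. Near-full recovery was built into this setting. It checks the code only and does not cover members near the threshold, with a wider spread or with few reads. The text names all members, at most 3 called genes per pathway list with the largest change between lung and PB, and the 3 nearest genes of each member. Members and lists were chosen with earlier results of these data known. *Cdkn1a*, *Il10ra* and *Osm* are named again for PB after their values were seen. Some genes of the lists are not reported here. Promoter windows are those of RefSeq. Figures were made with Python 3.11.15 and matplotlib 3.10.9.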

Additional observations from a re-analysis of the deposited data

Results flagged for a closer look

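For 8 members the difference between *Piezo1*-cKO and WT was not the same in lung and in PB, by the interaction term of limma with an adjusted p below 0.05. By the same rule 29.7% of all 7560 genes tested had an interaction above 0 and 18.5% below 0. The interaction (lung minus PB, log2 scale) was 1.28 for *Stat5a*, 0.89 for *Pim1*, 0.86 for *Socs4*, 0.62 for *Pim3* and 0.40 for *Stat3*, with adjusted p of 1.02e-04, 1.38e-04, 0.00468, 0.00935 and 5.00e-04. It was -1.59 for *Pim2*, -1.27 for *Cish* and -0.38 for *Socs1*, with adjusted p of 1.85e-04, 3.42e-04 and 0.0415. Leaving out each library in turn moved the interaction of *Stat5a* between 1.24 and 1.32 and that of *Pim1* between 0.79 and 0.99. The sizes for *Cish* and *Pim2*, which had 0 and 6 to 11 reads in WT PB, depended on the scale: with limma-voom and median-ratio factors they were -6.63 and -3.29. A fitted value for *Cish* against 0 reads depends on the count added and is no bound. With n = 2 libraries per group, the standard errors lean on the variance shared across genes. No group had the 4 libraries that a test for single outlying libraries needs.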

How the results depend on the processing

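Of 919 values of single members under the alternatives, 830 kept direction and side of the threshold, 5 lost and 63 gained a call, and 21 turned sign. The replicate block, the fit of all libraries, the fit without the filter and the adjusted p alone leave the log2 fold change as it is. They could not turn a sign, and the adjusted p alone gave 35 of the 63 gained calls. A member that failed the filter without a library is not among the 919. With the adjusted p alone the members called became 7 (lung against PB), 7 (lung against BM), 8 (PB against BM), 6 (*Piezo1*-cKO against WT, lung), 6 (the same in PB), 8 and 7 (lung against PB in WT and in *Piezo1*-cKO of the Piezo1 experiment) and 8 (genotype by tissue). Between tissues most genes met this limit. Those were 1209 higher and 5270 lower of 7577 (lung against PB) and 1782 and 5846 of 8236 (lung against BM). For PB against BM they were 2465 and 3558 of 8237. In the Piezo1 experiment they were 1180 and 5180 of 7143 (WT) and 1332 and 4722 of 7163 (*Piezo1*-cKO). For genotype they were 2249 and 1016 of 6434 in lung and 1920 and 1687 of 7256 in PB. With limma-voom and median-ratio factors the members called were 6 for lung against BM and 5 for lung against PB in *Piezo1*-cKO. For genotype in lung a pseudocount of 0.1 and both limma-voom fits gave 1 (*Cish*) in place of 0, and in PB they gave 2, 3 and 3 in place of 1. Without single libraries the count ran from 3 to 5 (PB against BM), 0 to 1 (genotype in lung), 0 to 1 (genotype in PB) and 2 to 4 (lung against PB, WT of the Piezo1 experiment), mostly because *Cish* or *Pim2* then failed the filter, which happened 14 times.

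Rescaled FPKM and limma-voom with median-ratio factors turned *Pim2* to 0.37 and 0.59 (lung against PB), *Socs4* to 0.56 and 0.66 and *Cish* to 0.50 and 0.71 (lung against BM), *Socs4* to -0.077 and -0.098 (genotype, lung), *Socs3* to 0.32 and 0.32 (lung against PB, WT of the Piezo1 experiment) and to 0.052 and 0.047 (*Piezo1*-cKO), and *Stat5a* to 0.24 and 0.34 (*Piezo1*-cKO). Without single libraries, *Socs4* ran from -0.086 to 0.15 and *Pim2* from -0.28 to 0.084 (lung against PB), *Socs4* from -0.18 to 0.20 (genotype, lung) and *Socs3* from -0.0078 to 0.12 (genotype, PB). The cause was not tested. For low genes the count fits gave larger sizes in the same direction, at most 3.96 and -3.46 for *Cish* (lung against PB, PB against BM) and 2.58 and 4.45 for *Pim2* (genotype in PB, lung against PB in WT of the Piezo1 experiment), against 1.47, -1.57, 1.13 and 1.95.

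After the group means were removed, same-numbered libraries correlated between -0.09 and 0.08. In groups of 2 libraries the deviations from the mean mirror each other. The values of the Piezo1 experiment therefore cannot show whether libraries of different tissues came from the same mouse. In the tissue experiment same-numbered libraries correlated between -0.089 and 0.055, and libraries of other numbers by up to 0.121. No pairing by number was seen there, which does not exclude shared mice. With a replicate block the members called were 3, 3, 5, 0, 1, 4, 3 and 3 in the order above, as without it. Over all genes, limma-voom on the recovered reads called 281 higher and 97 lower for genotype in lung (51 and 13 without it), 349 and 386 in PB (122 and 143) and 869 and 443 for genotype by tissue (324 and 194). Rescaled FPKM gave 1587 and 1158 for lung against BM (812 and 2965), 940 and 632 for lung against PB in WT of the Piezo1 experiment (536 and 1893), 976 and 550 in *Piezo1*-cKO (568 and 1644) and 35 and 18 for genotype in lung. Depth limits *Socs2* in every library, and *Cish* and *Pim2* in PB.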

Other observations

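In WT lung, the level of *Pim1* differed between the 2 experiments more than that of any other member. WT lung libraries had 1762 to 1814 FPKM in the tissue experiment and 129 and 132 in the Piezo1 experiment, a mean 13.7-fold lower, and WT PB libraries had 366 to 435 and 72.1 and 72.5, a mean 5.62-fold lower. Among 5610 genes with at least 1 FPKM in every WT lung library, 61 had a lower ratio between the experiments, and the median log2 ratio was -0.07. *Pim3* had a ratio of 1.30 in lung and 0.823 in PB, *Socs3* of 0.664 and 0.548, and *Stat3* of 0.822 and 0.936. *Stat5a* had a ratio of 0.406 in lung and 0.761 in PB. *Pim2* had a ratio of 2.07 in lung and, from 6 and 11 reads in WT PB of the Piezo1 experiment, of 0.138 in PB, a mean 7.26-fold lower. The experiments stand in separate tables, so these ratios were not tested, and within each experiment *Pim1* was higher in lung than in PB. The lung to PB difference of *Pim1* was 2.14 in the first and 0.84 in WT of the second, and the difference between these values was not tested either.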
